A study of Homo sapiens with 6 samples.

Results

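The cilium is a microtubule-based projection of the cell surface. Its parts are carried along the axoneme by intraflagellar transport (IFT), in which kinesin motors take IFT-B trains to the tip and a dedicated dynein brings them back with IFT-A, while the BBSome couples membrane proteins to these trains. Motile cilia carry in addition dynein arms, radial spokes and a central apparatus, and the arms are put together in the cytoplasm by assembly factors before they are loaded. Most epithelial cells can form a primary cilium when they leave the cell cycle, whereas motile cilia belong to specialised cells such as those of the airway and oviduct, and the gastric epithelium is not known for them.

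The 49 genes described here cover that machinery. They comprise IFT-B and IFT-A subunits, the heavy chain of the return motor, the BBSome and its chaperonin-like assembly factors, dynein arm assembly factors, structural parts of the motile axoneme, and the transcription factors FOXJ1, RFX2 and RFX3. A probe was taken for each gene through its RefSeq accession, and where several probes matched, the brightest by mean log2 signal represented the gene. This gave values for 48 of the 49 genes, among 22439 genes with a named probe. For IFT52 no probe was matched. The genes were listed with results of these data already known, and 10 of them (IFT81, DNAH9, SPAG16, DNAAF4, CCDC40, STK36, IFT140, BBS12, DNAAF19 and DPCD) also stand in the study's own list of microtubule-based movement genes, which was chosen on these samples. Differences between the groups are therefore given as a description.

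AGS is an established human gastric adenocarcinoma cell line. The cells were grown in serum-containing medium and transfected for 48 h either with a non-targeting siRNA (si-control, n = 3 arrays) or with si-C1GALT1-3, a single siRNA directed against C1GALT1 (n = 3 arrays). C1GALT1 is the galactosyltransferase that builds the core 1 structure of mucin-type O-glycans. The labels name no other treatment in either group. Because 1 siRNA was used, the loss of its target and other effects of that siRNA cannot be told apart. Nothing in the labels says that replicates came from separate cultures, so errors and p-values measure only the spread between these samples.

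Total RNA was hybridised on one-colour arrays with 60901 gene spots each, of which 66.2% to 72.7% were well above background per array. On si-control replicate 2 a rectangle of 9712 gene spots was dim, with 36.5% of spots well above background against 71.9% elsewhere on that array, and those spots were treated as missing. The number of arrays limits the precision. Both arrays with the same replicate number shared a slide, with si-control always in the first position and si-C1GALT1-3 always in the second, so position on the slide and treatment cannot be told apart. The targeted gene itself had normalized log2 signals of 12.22, 13.03 and 12.62 in si-control and 11.76, 11.98 and 11.13 in si-C1GALT1-3. The groups did not overlap, and the log2 fold change of C1GALT1 was -1.0 ± 0.31 (SE). Its unadjusted p was 0.0193 and its adjusted p 0.265 (limma). All 6 epithelial identity markers were measured above background on each array. Of the 5 markers of multiciliated cells, FOXJ1, DNAI1 and RSPH1 were well above background on each array, TEKT1 was nowhere well above background, and DNAH5 was so on 1 array of 6.

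A probe was called when the unadjusted p was under 0.01 and the change was at least 2-fold, si-C1GALT1-3 against si-control (limma). C1GALT1 itself did not meet this rule. By this rule 10 of the 48 cilium genes were called higher, where 1.65% of all 58195 probes and 2.08% of named genes with 1 probe each were, and 1 gene was called lower, where 0.991% of all probes and 1.33% of named genes were. The genes called higher were DNAAF19, IFT140, STK36, DNAAF4, BBS12, CCDC40, IFT172, IFT81, DYNC2H1 and TTC8. They belong to transport trains, the BBSome route, dynein arm assembly, the axonemal ruler and the central apparatus, and none of them is an axonemal dynein chain. The gene called lower was IFT57, whose probe was nowhere well above background.

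The median log2 fold change over the 48 genes was 0.46 (all probes, 0.00; named genes, 0.02). It was above 0 for 38 genes (all probes, 49.1%; named genes, 52.4%). In 23 genes every si-C1GALT1-3 value lay above every available si-control value (all probes, 11.0%), in 2 genes every value lay below (all probes, 10.4%), and in the other 23 the groups overlapped. In the main fit no cilium gene reached an adjusted p under 0.05 over all probes. The smallest adjusted p was 0.0692, for DNAAF4, and 24 genes had an unadjusted p under 0.05 (all probes, 13.8%; named genes, 16.6%). Among the 10 genes of the study's own list 7 were called higher, with a median of 1.44. Among the other 38 genes 3 were called higher (IFT172, TTC8 and DYNC2H1), 29 had a positive log2 fold change and the median was 0.32.

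**Figure D1:**
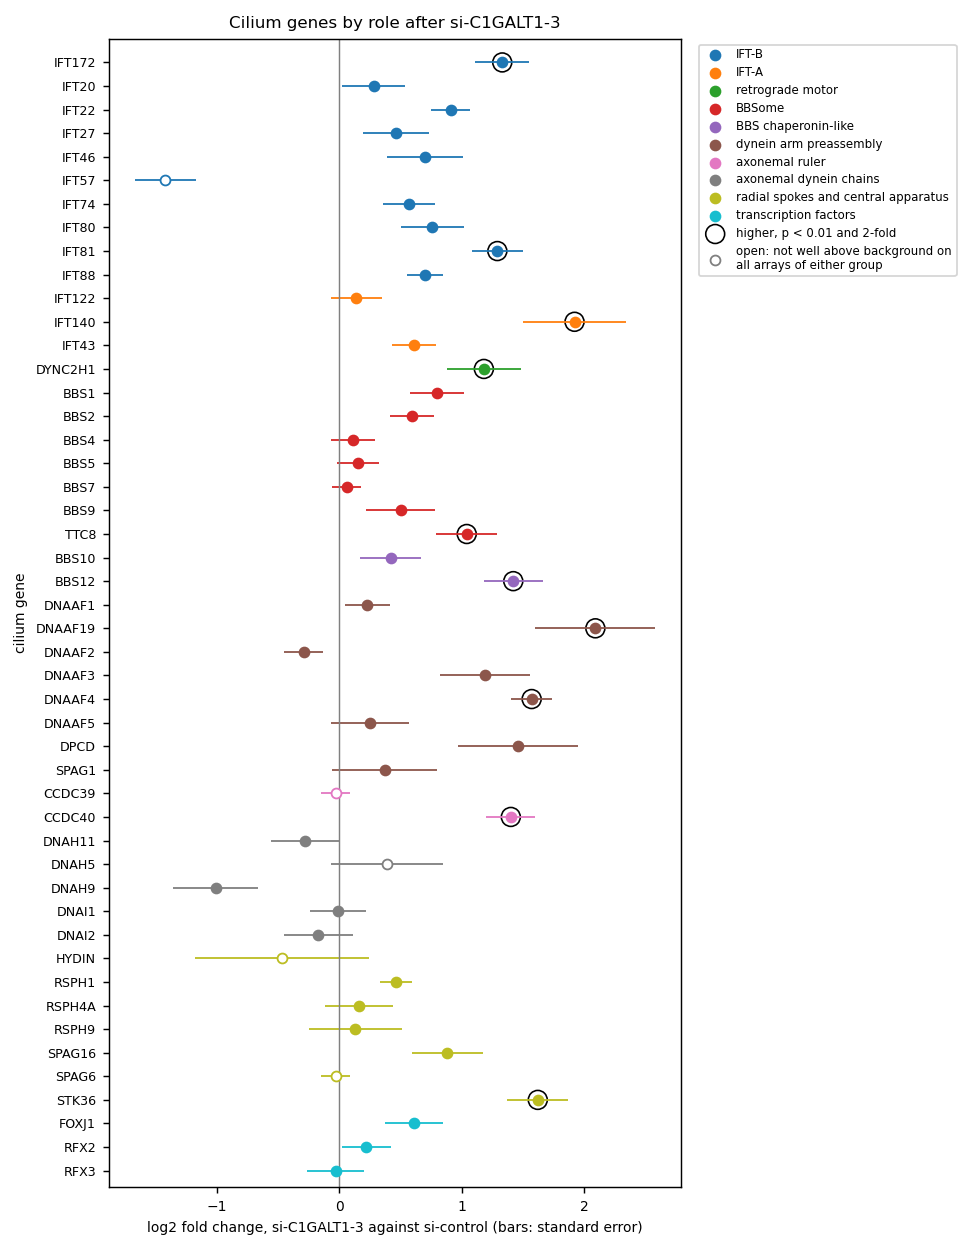
Log2 fold change (x axis, si-C1GALT1-3 against si-control, n = 3 arrays per group) of the 48 measured cilium genes (y axis), coloured by role, with the standard error as bars. Circles mark the 10 genes called higher and open points mark the 5 genes that neither group measured above background on all of its arrays. Most points of the transport, BBSome and assembly classes lie to the right of 0, and the axonemal dynein chains lie around or left of it.

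RFX factors, among them RFX2 and RFX3, bind the X-box, a promoter element whose arms often read GTTGCC or, on the other strand, GGCAAC. RefSeq promoter windows (GRCh38.p14, 250 bases before to 50 after the gene's start) were matched for 39 of the 49 genes. GTTGCC was present on either strand in 21 of these 39 windows (53.8%), against 12.2% of all 27305 promoters of the same length and 33.9% of 183 promoters of other cilium genes. Of the 9 genes called higher with a window, 5 held it (55.6%), and of the 30 other genes 16 held it (53.3%). These 2 shares lie close together, and the number of called genes with a window is small. The median log2 fold change was 0.57 over the 21 genes with a match and 0.28 over the 17 measured genes without one. The longer pattern GTNNCCNNGGNNAC, which holds both arms of an X-box and can overlap GTTGCC, was present in 5 of the 39 windows (12.8%; all promoters, 2.06%), namely those of DNAH11, IFT57, RSPH9, SPAG16 and SPAG6. None of these 5 genes was called higher.

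The windows below are those of the 5 genes called higher that hold GTTGCC, followed by SPAG16, which holds the longer pattern as GTTGCCACGGTAAC. They are shown because they let the promoter letters be read beside the expression values. Each reads 5′ to 3′ along the gene's strand, and capitals mark GTTGCC, its reverse complement GGCAAC and the longer pattern.
DNAAF19, chr17:44899479-44899778, + strand: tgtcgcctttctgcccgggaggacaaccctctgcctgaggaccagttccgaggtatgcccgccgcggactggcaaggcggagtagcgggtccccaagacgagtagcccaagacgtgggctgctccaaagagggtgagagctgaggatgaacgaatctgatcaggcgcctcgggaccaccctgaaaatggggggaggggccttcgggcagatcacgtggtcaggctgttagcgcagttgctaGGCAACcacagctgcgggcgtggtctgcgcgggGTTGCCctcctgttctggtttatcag
DYNC2H1, chr11:103109176-103109475, + strand: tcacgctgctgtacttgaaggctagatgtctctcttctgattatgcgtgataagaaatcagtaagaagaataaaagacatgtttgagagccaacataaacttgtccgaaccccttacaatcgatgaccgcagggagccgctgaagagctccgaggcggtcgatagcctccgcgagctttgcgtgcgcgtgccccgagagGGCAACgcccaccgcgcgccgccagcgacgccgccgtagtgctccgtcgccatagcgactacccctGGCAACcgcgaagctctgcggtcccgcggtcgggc
IFT81, chr12:110124107-110124406, + strand: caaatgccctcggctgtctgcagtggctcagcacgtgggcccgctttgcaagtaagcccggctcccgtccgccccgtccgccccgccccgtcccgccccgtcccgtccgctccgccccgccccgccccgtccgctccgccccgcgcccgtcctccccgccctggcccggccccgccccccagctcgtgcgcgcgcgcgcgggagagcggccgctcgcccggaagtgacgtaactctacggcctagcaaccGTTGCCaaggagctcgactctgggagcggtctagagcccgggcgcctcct
STK36, chr2:218671836-218672135, + strand: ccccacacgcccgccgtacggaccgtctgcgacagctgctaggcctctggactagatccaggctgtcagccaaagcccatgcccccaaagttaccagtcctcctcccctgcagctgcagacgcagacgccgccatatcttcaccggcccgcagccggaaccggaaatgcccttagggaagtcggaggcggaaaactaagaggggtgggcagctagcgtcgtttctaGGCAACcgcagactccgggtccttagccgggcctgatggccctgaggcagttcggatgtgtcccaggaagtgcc
TTC8, chr14:88824401-88824700, + strand: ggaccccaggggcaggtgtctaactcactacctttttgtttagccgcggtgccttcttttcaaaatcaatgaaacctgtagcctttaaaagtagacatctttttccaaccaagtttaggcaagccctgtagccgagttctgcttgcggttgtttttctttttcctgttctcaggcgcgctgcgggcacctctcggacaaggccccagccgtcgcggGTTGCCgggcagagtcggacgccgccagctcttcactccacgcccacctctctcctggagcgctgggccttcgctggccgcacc
SPAG16, chr2:213284214-213284513, + strand: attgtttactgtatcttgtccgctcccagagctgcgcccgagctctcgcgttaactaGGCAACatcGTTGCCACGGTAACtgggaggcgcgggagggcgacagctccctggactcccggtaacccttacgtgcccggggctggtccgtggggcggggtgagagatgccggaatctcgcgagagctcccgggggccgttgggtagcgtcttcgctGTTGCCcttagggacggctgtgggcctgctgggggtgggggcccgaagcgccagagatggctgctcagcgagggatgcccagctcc
In DNAAF19, DYNC2H1, IFT81, STK36 and TTC8 the first base of each match lay between 51 bases before and 25 bases after the start. A match is a description of letters and says nothing of whether a factor bound there.

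**Figure D2:**
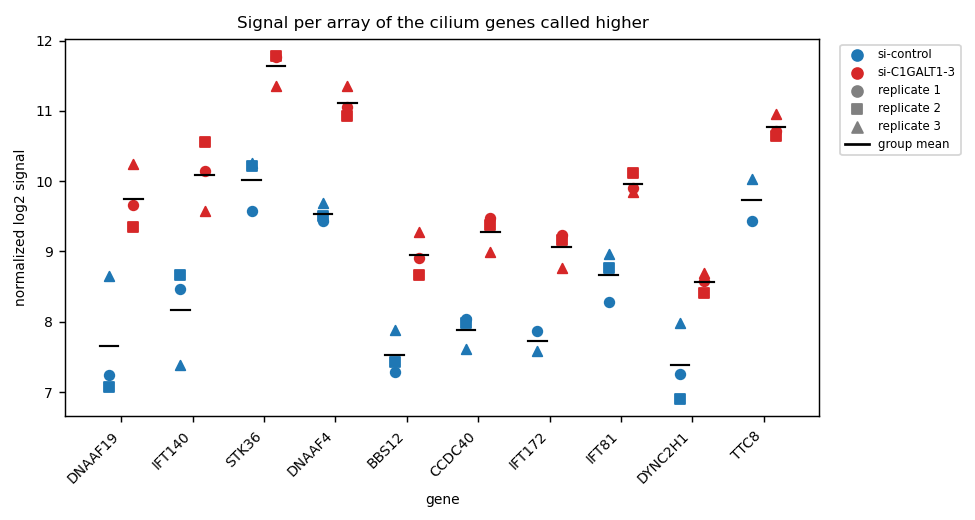
Normalized log2 signal (y axis) of the 10 cilium genes called higher (x axis) on each array, with si-control in blue, si-C1GALT1-3 in red, replicate numbers as symbols and group means as lines. In every gene all red points lie above all blue points, and IFT172 and TTC8 have 2 blue points because the si-control replicate 2 spot was missing. Levels of different genes come from different probes and are not comparable.

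The IFT-B complex carries cargo toward the tip of the cilium. Of its 10 measured subunits 9 had a positive log2 fold change, 6 separated the groups upward (all probes, 11.0%), 2 were called higher (all probes, 1.65%) and the median was 0.70. The same background shares hold for the counts of each class that follows. IFT172, the largest subunit, which takes part in the turnaround at the tip, had normalized log2 signals of 7.87 and 7.59 in si-control replicates 1 and 3 and 9.24, 9.17 and 8.77 in si-C1GALT1-3. Its log2 fold change was 1.33 ± 0.22 (SE), a 2.52-fold difference resting on 2 control arrays. IFT81, which together with IFT74 binds tubulin, read 8.28, 8.76 and 8.96 in si-control and 9.90, 10.12 and 9.84 in si-C1GALT1-3. The log2 fold change of IFT81 was 1.29 ± 0.21 (2.44-fold). The groups stood apart for both genes, with the lowest knockdown array well over the highest control array.

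Other core subunits moved less and stayed under 2-fold. IFT22, a small GTPase-like subunit, read 7.60, 7.35 and 7.60 in si-control and 8.57, 8.47 and 8.25 in si-C1GALT1-3, a log2 fold change of 0.91 ± 0.16. IFT88, a core subunit needed to build the cilium, read 10.28, 10.18 and 9.95 against 10.85, 10.93 and 10.73, a log2 fold change of 0.70 ± 0.15. Neither gene overlapped between the groups. IFT80 (0.76 ± 0.26) and IFT74 (0.57 ± 0.21) also separated the groups. The groups overlapped for IFT46 (0.70 ± 0.31), IFT27 (0.46 ± 0.27), a GTPase that links trains to the BBSome, and IFT20 (0.28 ± 0.26), a subunit also found at the Golgi. IFT57 read 4.98, 5.32 and 5.74 in si-control and 3.76, 3.81 and 4.21 in si-C1GALT1-3. All 6 of these values were not well above background, so no fold is given for it.

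IFT-A and dynein-2 return trains to the cell body. IFT140, a core IFT-A subunit, read 8.47, 8.66 and 7.39 in si-control and 10.14, 10.56 and 9.58 in si-C1GALT1-3. Its log2 fold change was 1.92 ± 0.42 (3.77-fold), and si-control replicate 3 and si-C1GALT1-3 replicate 3 were the lowest arrays of their groups. IFT43, a peripheral IFT-A subunit, read 11.63 and 11.29 in si-control replicates 1 and 3 and 12.12, 12.01 and 12.08 in si-C1GALT1-3, a log2 fold change of 0.61 ± 0.18 that again rests on 2 control arrays. IFT122 was nearly level between the groups, which overlapped (0.14 ± 0.21). DYNC2H1, the heavy chain of dynein-2, read 7.26, 6.90 and 7.98 in si-control and 8.58, 8.41 and 8.69 in si-C1GALT1-3. The log2 fold change of DYNC2H1 was 1.18 ± 0.30 (2.26-fold). Its control arrays were spread more widely (SD 0.55) than its knockdown arrays (SD 0.14).

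All 7 measured BBSome subunits had a positive log2 fold change, with a median of 0.50, and 1 was called higher. TTC8, also known as BBS8, read 9.44 and 10.03 in si-control replicates 1 and 3 and 10.71, 10.64 and 10.96 in si-C1GALT1-3. Its log2 fold change was 1.04 ± 0.25 (2.05-fold), close to the 2-fold limit, and TTC8 was not called with the slide as a replicate block. BBS1, which contacts the membrane GTPase ARL6, read 8.57, 8.94 and 8.38 against 9.48, 9.67 and 9.14 (0.80 ± 0.22). BBS2 read 10.59, 10.73 and 10.35 against 11.28, 11.27 and 10.89 (0.59 ± 0.18), with 1 of its 10 spots missing on si-control replicate 2. Both separated the groups without reaching 2-fold. BBS7 separated them as well, but by only 0.06 ± 0.12. The groups overlapped for BBS9 (0.50 ± 0.28), BBS5 (0.15 ± 0.17) and BBS4 (0.11 ± 0.18).

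BBS10 and BBS12 are chaperonin-like proteins required to assemble the BBSome. BBS12 read 7.29, 7.43 and 7.88 in si-control and 8.91, 8.67 and 9.28 in si-C1GALT1-3. Its log2 fold change was 1.42 ± 0.24 (2.68-fold), and the knockdown arrays all lay above the control arrays. BBS10 overlapped between the groups (0.42 ± 0.25).

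Dynein arm assembly factors act in the cytoplasm. Of 8 measured genes 7 had a positive log2 fold change, 4 separated the groups upward (all probes, 11.0%) and 2 were called higher (all probes, 1.65%), with a median of 0.78. DNAAF19, formerly CCDC103, a factor needed for dynein arms to attach to the axoneme, read 7.24, 7.07 and 8.65 in si-control and 9.66, 9.35 and 10.24 in si-C1GALT1-3. The log2 fold change of DNAAF19 was 2.09 ± 0.49 (4.27-fold), the highest of the 48 genes, and replicate 3 was the highest array in both groups. DNAAF4, formerly DYX1C1, a co-chaperone, read 9.43, 9.50 and 9.69 in si-control and 11.05, 10.93 and 11.36 in si-C1GALT1-3. The log2 fold change of DNAAF4 was 1.57 ± 0.17 (2.97-fold), with replicates closer together than those of DNAAF19.

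2 further assembly genes had changes over 2-fold without a call. DPCD read 9.91 and 11.29 in si-control replicates 1 and 3 and 11.90, 11.80 and 12.50 in si-C1GALT1-3 (1.46 ± 0.49). DNAAF3 read 7.41, 7.72 and 8.72 against 9.18, 8.87 and 9.37 (1.19 ± 0.37). In both genes the controls themselves differed by more than 1 on the log2 scale, yet the groups did not overlap. The groups overlapped for SPAG1 (0.37 ± 0.43), DNAAF5 (0.25 ± 0.32), DNAAF1 (0.23 ± 0.18) and DNAAF2 (-0.29 ± 0.16).

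CCDC39 and CCDC40 together form the ruler that sets the repeat of the axoneme. CCDC40 read 8.04, 7.98 and 7.61 in si-control and 9.48, 9.37 and 8.99 in si-C1GALT1-3, a log2 fold change of 1.40 ± 0.20 (2.64-fold). Its within-slide differences were 1.44, 1.39 and 1.38. Its partner CCDC39 was nowhere well above background.

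None of the 5 axonemal dynein chains was called. Over these 5 genes the median log2 fold change was -0.17. DNAH9, an outer arm heavy chain, read 12.93, 11.68 and 12.11 in si-control and 11.22, 11.00 and 11.48 in si-C1GALT1-3. Its log2 fold change was -1.01 ± 0.35 (adjusted p = 0.302, limma), and each knockdown array lay below each control array, which makes it the only detected cilium gene whose groups separated downward. The groups overlapped for the intermediate chains DNAI1 (-0.01 ± 0.23) and DNAI2 (-0.17 ± 0.28) and for the heavy chain DNAH11 (-0.28 ± 0.28), which rests on 2 control arrays. A second probe of each intermediate chain gave a positive value, 0.36 for DNAI1 and 0.80 for DNAI2. DNAH5, the principal outer arm heavy chain, read 5.0, 4.32 and 5.59 in si-control and 5.34, 6.04 and 4.72 in si-C1GALT1-3. It was well above background on 1 knockdown array alone, and no fold is given.

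Radial spokes and the central apparatus regulate dynein along the axoneme. STK36, a kinase homologous to Drosophila Fused that is required for the central apparatus in mammals, read 9.57, 10.21 and 10.26 in si-control and 11.77, 11.78 and 11.35 in si-C1GALT1-3. The log2 fold change of STK36 was 1.62 ± 0.25 (3.08-fold). SPAG16, a central apparatus protein, read 9.43, 9.90 and 8.85 against 10.36, 10.40 and 10.04 (0.88 ± 0.29), and the spoke head protein RSPH1 read 7.73, 7.92 and 7.82 against 8.17, 8.27 and 8.41 (0.46 ± 0.13). Both separated the groups without reaching 2-fold. The spoke head proteins RSPH4A (0.16 ± 0.28) and RSPH9 (0.13 ± 0.38) overlapped. SPAG6, a central apparatus protein, was nowhere well above background. HYDIN, another central apparatus protein with a near-identical genomic copy that its probes may also detect, read 6.64, 5.19 and 5.31 in si-control and 6.59, 4.96 and 4.20 in si-C1GALT1-3. It was well above background on 1 array of each group, and no fold is given.

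FOXJ1, the factor that drives motile ciliogenesis, read 8.41, 8.0 and 8.41 in si-control and 8.72, 8.64 and 9.30 in si-C1GALT1-3. Its log2 fold change was 0.61 ± 0.24, without overlap, under 2-fold and not called. RFX2 (0.22 ± 0.20) and RFX3 (-0.03 ± 0.23), which bind X-box elements, overlapped between the groups.

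**Figure D3:**
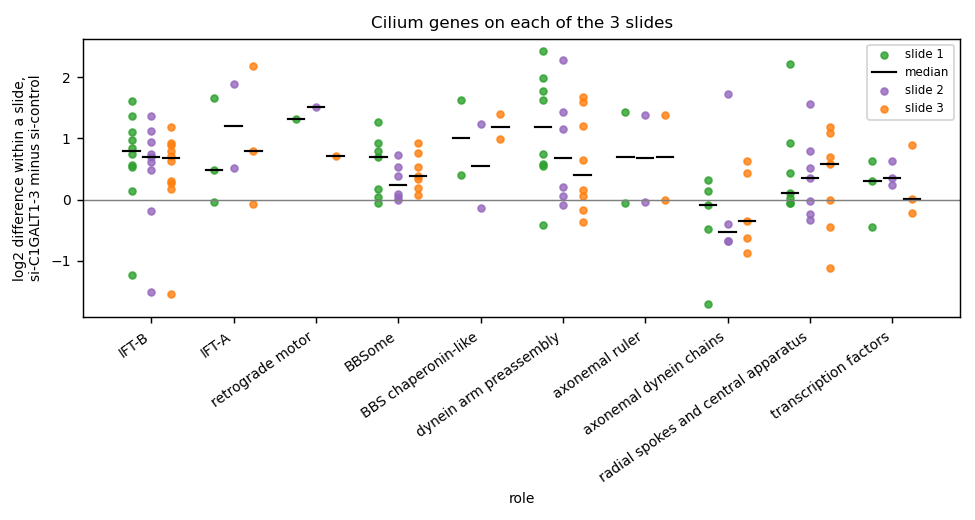
Log2 difference between the si-C1GALT1-3 and the si-control array of the same slide (y axis) for each cilium gene, by role (x axis) and slide (colour), with the median of each class and slide as a line. The medians of the IFT-B, BBSome and dynein arm assembly classes lie above 0 on all 3 slides and those of the axonemal dynein chains lie below 0 on all 3. Genes without a si-control replicate 2 value have no point on slide 2.

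Within slides, the median difference over the cilium genes was 0.56, 0.49 and 0.56 on slides 1, 2 and 3. Of the 42 genes with values on all 6 arrays 25 were higher in si-C1GALT1-3 on every slide (all probes, 22.3%; named genes, 27.6%). Among those 42 genes the lowest si-control value fell on replicate 1 in 14, on replicate 2 in 12 and on replicate 3 in 16.

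Of the 48 genes 43 were detected, meaning well above background on every available array of at least 1 group. These included all 10 genes called higher (detected probes, 1.96%; detected named genes, 2.34%). Of the 43 genes 37 had a positive log2 fold change (detected named genes, 53.5%). The genes not detected were IFT57, CCDC39, SPAG6, DNAH5 and HYDIN. On the mean log2 processed signal DNAH11 (5.73) lay just inside this limit, and HYDIN (5.45) and DNAH5 (5.17) lay just outside.

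The spots of IFT172, IFT43, TTC8, DNAAF5, DPCD and DNAH11 lay in the dim rectangle of si-control replicate 2. When these spots were kept, that array read 3.25 for TTC8, DNAAF5 and DNAH11, 4.72 for DPCD, 5.74 for IFT43 and 5.81 for IFT172, below the other control arrays in each case. The log2 fold changes then became 3.42 for DPCD, 3.19 for TTC8, 3.10 for DNAAF5, 2.51 for IFT43, 1.95 for IFT172 and 0.56 for DNAH11. DPCD, TTC8, DNAAF5, IFT43 and IFT172 stayed positive and DNAH11 turned from negative to positive, and 7 cilium genes were called in either direction, against 11 with the spots missing. Without si-control replicate 2 as a whole, 9 cilium genes were called higher and 2 lower, IFT57 and DNAH9.

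**Figure D4:**
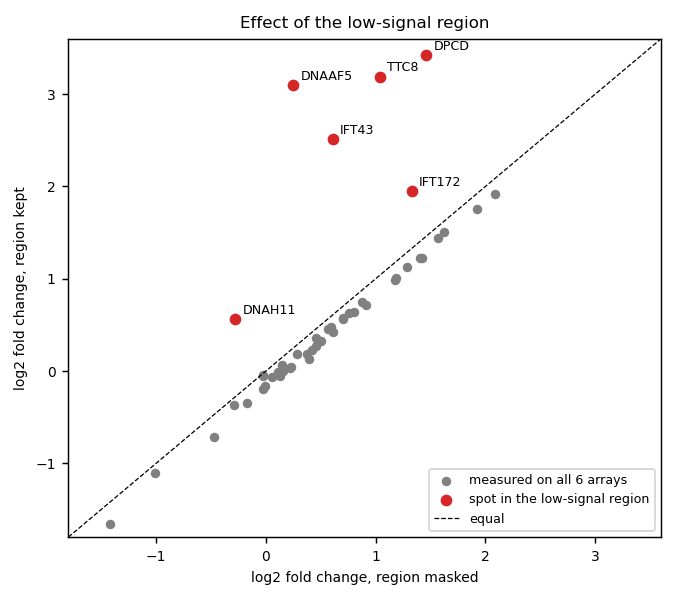
Log2 fold change of each cilium gene with the dim rectangle of si-control replicate 2 treated as missing (x axis) and with it kept (y axis), with equality as a dashed line. The 6 genes whose spots lie in the rectangle (red) lie above the line, DPCD highest at 3.42, and the other genes lie at or slightly below it.

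Other cilium genes were listed by function, likewise with earlier results known. Over 214 of them measured, 17 were called higher (all probes, 1.65%; named genes, 2.08%) and 1 lower (all probes, 0.991%; named genes, 1.33%). A positive log2 fold change was found for 134 (all probes, 49.1%; named genes, 52.4%), and the median was 0.15. These shares are the background for the counts of each list that follows. In each list the genes with the greatest change among those measured above background throughout at least 1 group are named, and further called genes were named after their values were seen. Adjusted p over all probes was between 0.0666 and 0.209 for the called genes named in this and the next paragraph (limma). Among 23 further IFT, BBSome and motor genes 5 were called higher and none lower, with a median of 0.35. KIF3A, a subunit of the kinesin that drives IFT-B trains, had a log2 fold change of 1.99 ± 0.35 (SE). WDR35, an IFT-A subunit, had 1.33 ± 0.28, with 1 of 3 control arrays well above background. IFT70B, an IFT-B subunit, had 1.24 ± 0.31, and CLUAP1, another IFT-B subunit, had 1.03 ± 0.19. LZTFL1, a regulator of the BBSome, was called with all arrays at background.

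The transition zone gates the base of the cilium. Of its 27 genes 5 were called higher and none lower, 22 had a positive log2 fold change and the median was 0.47. TMEM17 (1.83 ± 0.22) was well above background on 2 of 3 control arrays. RPGRIP1L was not well above background in si-control and was at least 1.28-fold higher in si-C1GALT1-3. TMEM67 gave 1.55 ± 0.16 and TCTN1 gave 1.01 ± 0.14. Among 19 ciliary membrane cargo genes the median was 0.06, and ARL2BP was called lower (-1.18 ± 0.24). Among 72 further motile cilium genes 5 were called higher and none lower, with a median of 0.23. They were CFAP251 (1.57 ± 0.33), DRC9 (1.48 ± 0.28), LRRC23 (1.23 ± 0.24), CAPS (1.18 ± 0.31) and ROPN1L, whose probe was at background on every available array.

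**Figure D5:**
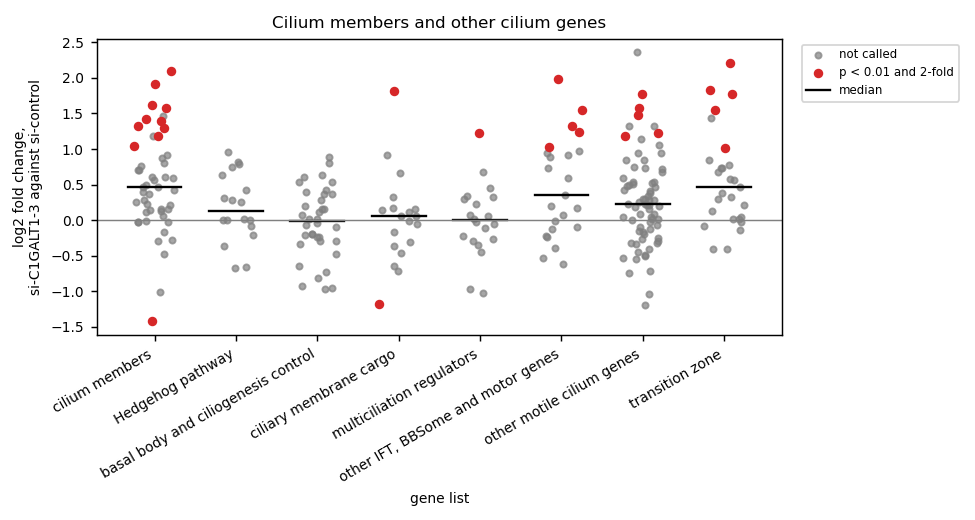
Log2 fold change (y axis, si-C1GALT1-3 against si-control) of the cilium genes described here and of the 7 lists of other cilium genes (x axis), 1 point per gene, with called genes in red and list medians as lines. The medians of the transition zone (0.47) and of the further IFT, BBSome and motor genes (0.35) lie nearest to that of the cilium genes (0.46), and that of basal body and ciliogenesis control lies at -0.02.

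Proliferation markers moved in the same contrast. All 8 measured genes of that list had a negative log2 fold change, with a median of -1.13. Of these, 3 were called lower (all probes, 0.991%; named genes, 1.33%) and 7 separated the groups downward (all probes, 10.4%; 2517 of 22437 named genes). Their summed normalized signal was 63800 and 119000 in the si-control arrays with all 8 genes and 47700 to 53900 in si-C1GALT1-3. The summed signal of the multiciliated cell markers was 1070 to 1330 in si-control and 1370 to 1630 in si-C1GALT1-3, with TEKT1 and DNAH5 at background in si-control. The part of proliferation and of cell composition in the cilium gene differences was not tested. In these bulk samples, fewer cells of a type and less RNA per cell cannot be told apart.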

How the data were processed

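Total RNA of AGS cells was measured on 6 one-colour Agilent arrays. The authors deposited scanner files with spot intensity values extracted by Feature Extraction 10.5.1.1 (background-subtracted and detrended within the array, not normalized between arrays). They also deposited a table that equalled the background-subtracted intensity of the same scans, a linear scale without centring (column medians 143 to 277), used as an alternative only. Here, control spots and outlier spots were left out, spots in rows 113 to 288 and columns 59 to 115 of si-control replicate 2 were set to missing, and log2 processed signals were quantile normalized (as in the study) and averaged per probe. Groups were compared with limma 3.58.1 in R 4.3.3 (lmFit, eBayes), with p-values adjusted by Benjamini-Hochberg over 58195 probes. The fit was tested on simulated data. Well above background is the flag of the scanner software. Probes were named through unversioned RefSeq accessions (31104 probes, 53.4%), with the brightest probe standing for a gene. Named were C1GALT1, all 49 cilium genes and, per other cilium list, up to 3 called genes with the greatest change. Some called genes of those lists are not reported here. The cilium genes and all lists were chosen with earlier results of these data known. Arrays with the same number share a slide, and their deviations from the group means correlated at 0.198, 0.215 and 0.329 across probes, so the numbers pair the samples. The main fit did not use this pairing, so its errors, p-values and calls are those of an unpaired comparison. The slide entered as a block in an alternative only. Alternatives changed the normalization, background, dim-probe filter, dim region, block, prior, outlier rule, source table, probe rule and left out each array.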

Additional observations from a re-analysis of the deposited data

How the results depend on the processing

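Of the 11 cilium genes called, BBS12, DNAAF4, IFT81 and STK36 were called under all 16 alternatives of the fit and CCDC40 under 15. TTC8 (called in 7), DYNC2H1 (9), DNAAF19 (10) and IFT140 (11) were lost most often. With the slide as a replicate block 10 cilium genes and 1604 probes were called, and 0 probes had an adjusted p under 0.05 (limma). TTC8 was lost there and no other cilium gene changed its call. With the dim region kept 7 cilium genes and 10 other cilium genes were called, and 40.2% of called probes were higher, against 62.5% with it missing. Without normalization between arrays that share was 72.6%, with the 75th percentile 54.1% and with normexp background 54.3%. Normexp called 915 probes against 1538. The median log2 fold change of the cilium genes was 0.57 without normalization, 0.39 with normexp, 0.57 over detected probes only and 0.39 with the region kept. Leaving out 1 array at a time gave 6 to 12 cilium genes called, medians of 0.40 to 0.52, and 11 to 18 other cilium genes called. The fewest cilium genes, 6, were called without si-C1GALT1-3 replicate 2, and 7 were called without si-control replicate 1 or without si-C1GALT1-3 replicate 1. Other cilium genes called were 11 without si-C1GALT1-3 replicate 1 and 12 without si-C1GALT1-3 replicate 2. C1GALT1 was at -1.0 with detected probes only, with an unadjusted p of 0.00992 (limma), and ranged from -1.20 to -0.75 over the alternatives. The 75th percentile moved the median of all probes by -0.11, and 38 of the 48 cilium genes still had a positive log2 fold change there. Probes with an adjusted p under 0.05 numbered 49, and between 0 and 545 under the alternatives, so adjusted p-values depend on the setting. The lowest adjusted p over the alternatives was 0.0153 for DNAAF4, 0.0288 for STK36, 0.033 for CCDC40, 0.0408 for BBS12 and 0.0456 for IFT81 (limma). The highest for these genes lay between 0.323 and 0.544 (limma). For IFT57, CCDC39, SPAG6, DNAH5 and HYDIN, signal over background limits any statement on level. The causes of these shifts were not tested.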

Other observations

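Genes that control the start of ciliogenesis at the basal body showed no call in either direction. Over 36 genes of that list the median log2 fold change was -0.02, with 18 genes above and 18 below 0, and 9 of them had an unadjusted p under 0.05 (limma; all probes, 13.8%, named genes, 16.6%). The Hedgehog pathway, which vertebrate cells transduce through the primary cilium, also held no called gene among 18, with a median of 0.13 and 4 genes with an unadjusted p under 0.05 (limma, against the same background shares). Of 20 regulators of multiciliation 1 was called higher, E2F5, with a log2 fold change of 1.23 ± 0.19 (SE) and an adjusted p of 0.124 (limma), resting on 2 control arrays, and the median of that list was 0.00.

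Several cilium genes had a second probe. The second probes of DNAAF19 (log2 fold change 2.26 against 2.09), DPCD (1.34 against 1.46), BBS9 (0.89 against 0.50), IFT81 (0.82 against 1.29) and IFT74 (0.58 against 0.57) pointed the same way as the probe described. The probes disagreed in sign for RFX3 (0.60 against -0.03), IFT27 (-0.37 against 0.46), DNAAF2 (0.22 against -0.29), DNAI2 (0.80 against -0.17), DNAI1 (0.36 against -0.01) and RSPH4A (-0.18 against 0.16), with both probes detected. The second probe of CCDC40 was not well above background in si-control.

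Of 4 further motifs searched on both strands of the promoter windows, GTTACC was present in 20.5% of the 39 cilium windows (all promoters, 6.39%) and the pattern GTNNCCNGGNNAC in 2.56% (all promoters, 0.828%). The forkhead letters GTAAACA were present in 5.13% (all promoters, 3.41%) and CCAAT in 38.5% (all promoters, 35.7%). The median GC content was 63.0% in the cilium windows and 58.3% in all promoters.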
